A study of Mus musculus with 4 samples.

Results

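The nuclear genes of oxidative phosphorylation were examined in 4 libraries of total RNA, 2 made from monocytes and 2 from neutrophils of adult C57BL6 mice. Both cell types came from peripheral blood. They were taken by symbol: every protein-coding gene of the tables whose name begins with Nduf, Uqcr, Cox4 to Cox8 or Atp5, or is one of Sdha to Sdhd. This gave 93 of 43346 gene rows, of which 36 encode subunits of complex I, 4 of complex II, 8 of complex III, 20 of complex IV and 16 of complex V, while 9 are mainly assembly factors. Ndufa4 was placed with complex IV, where its protein is now known to sit. The monocytes were gated by sorting as Gr-1+Mac-1+ cells per the labels (as Ly6g-, CD11b+ cells in the methods), and the neutrophils came unsorted from the cell pellet after lysis of red cells. The methods call the mice male. The replicates may be separate groups of mice or portions of a single sort, so the p-values measure the spread between these libraries, which may be technical.

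Oxidative phosphorylation couples the flow of electrons through complexes I to IV of the inner mitochondrial membrane to the pumping of protons, which complex V then uses to make ATP. Most subunits are encoded in the nucleus and are joined in the mitochondrion by a small set made from mitochondrial DNA, while assembly factors build the complexes without remaining in them. Neutrophils are known for few mitochondria and a reliance on glycolysis, whereas monocytes keep more respiratory capacity.

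The libraries held 26076261 and 25538433 expected counts for monocytes and 21634828 and 20549572 for neutrophils. Expected counts are RSEM's estimates of the number of reads per gene, and CPM below are these counts relative to the size of the library after TMM scaling (counts per 1000000). Of 9 monocyte markers, 8 were higher in the monocyte libraries (summed 13370 to 13580 CPM, against 2255 to 2299 CPM in the neutrophil libraries). Of 9 neutrophil markers, 8 were higher in the neutrophil libraries (summed 7657 to 7928 CPM, against 326 to 358 CPM in the monocyte libraries). The other neutrophil marker was higher in the monocyte libraries, and Ly6g was at 0 counts in both monocyte libraries. Markers of other cells were present in both groups. All 7 natural killer cell markers were higher in the monocyte libraries (summed 2321 to 2378 CPM, against 28.2 to 29.0 CPM), and all 7 B cell markers were higher in the neutrophil libraries (summed 2254 to 2282 CPM, against 294 to 383 CPM). In each of 3 further lists of 6 markers, 4 were higher in the neutrophil libraries. T cell markers, of which 1 was higher in monocytes, summed to 79.8 to 88.8 CPM in monocytes and 97.9 to 104 CPM in neutrophils, red cell markers to 6204 to 6643 against 8059 to 8728 CPM, and platelet markers to 53.3 to 56.1 against 102 to 114 CPM. Xist, transcribed from the inactive X chromosome of female cells, was at 0 counts in either monocyte library but had 5088 and 4878 counts in neutrophils, while Y-linked Ddx3y had 2782 to 9847 counts in all 4 libraries. The part of other cells and of sex in the differences below was not tested. In bulk RNA, fewer cells of a type and less RNA per cell cannot be told apart.

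Most nuclear genes of oxidative phosphorylation took a larger part of the RNA in monocytes than in neutrophils. Together the 93 genes held 0.544% and 0.518% of the counts of nuclear protein-coding genes in the monocyte libraries and 0.288% and 0.306% in the neutrophil libraries. The means were 0.531% ± 0.0182 and 0.297% ± 0.0125 (SD, n = 2 each), a ratio of 1.79. In the edgeR quasi-likelihood test, 51 of the 85 genes tested were higher in monocytes at a Benjamini-Hochberg adjusted p under 0.05 and 0 were higher in neutrophils. At an unadjusted p under 0.05 the counts were 56 and 0, but the share of all genes at that threshold was not taken. DESeq2's test called 53 and 0 at the adjusted threshold (22% and 22.9% of all genes it tested). Over all 14309 genes tested, 20.8% passed with monocytes higher and 21.8% with neutrophils higher. The median log2 fold change of the 85 genes, monocyte over neutrophil, was 0.88 with a range from -0.60 to 2.58, against -0.02 over the tested protein-coding genes. The fold change was positive for 74 genes and negative for 11.

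**Figure D1:**
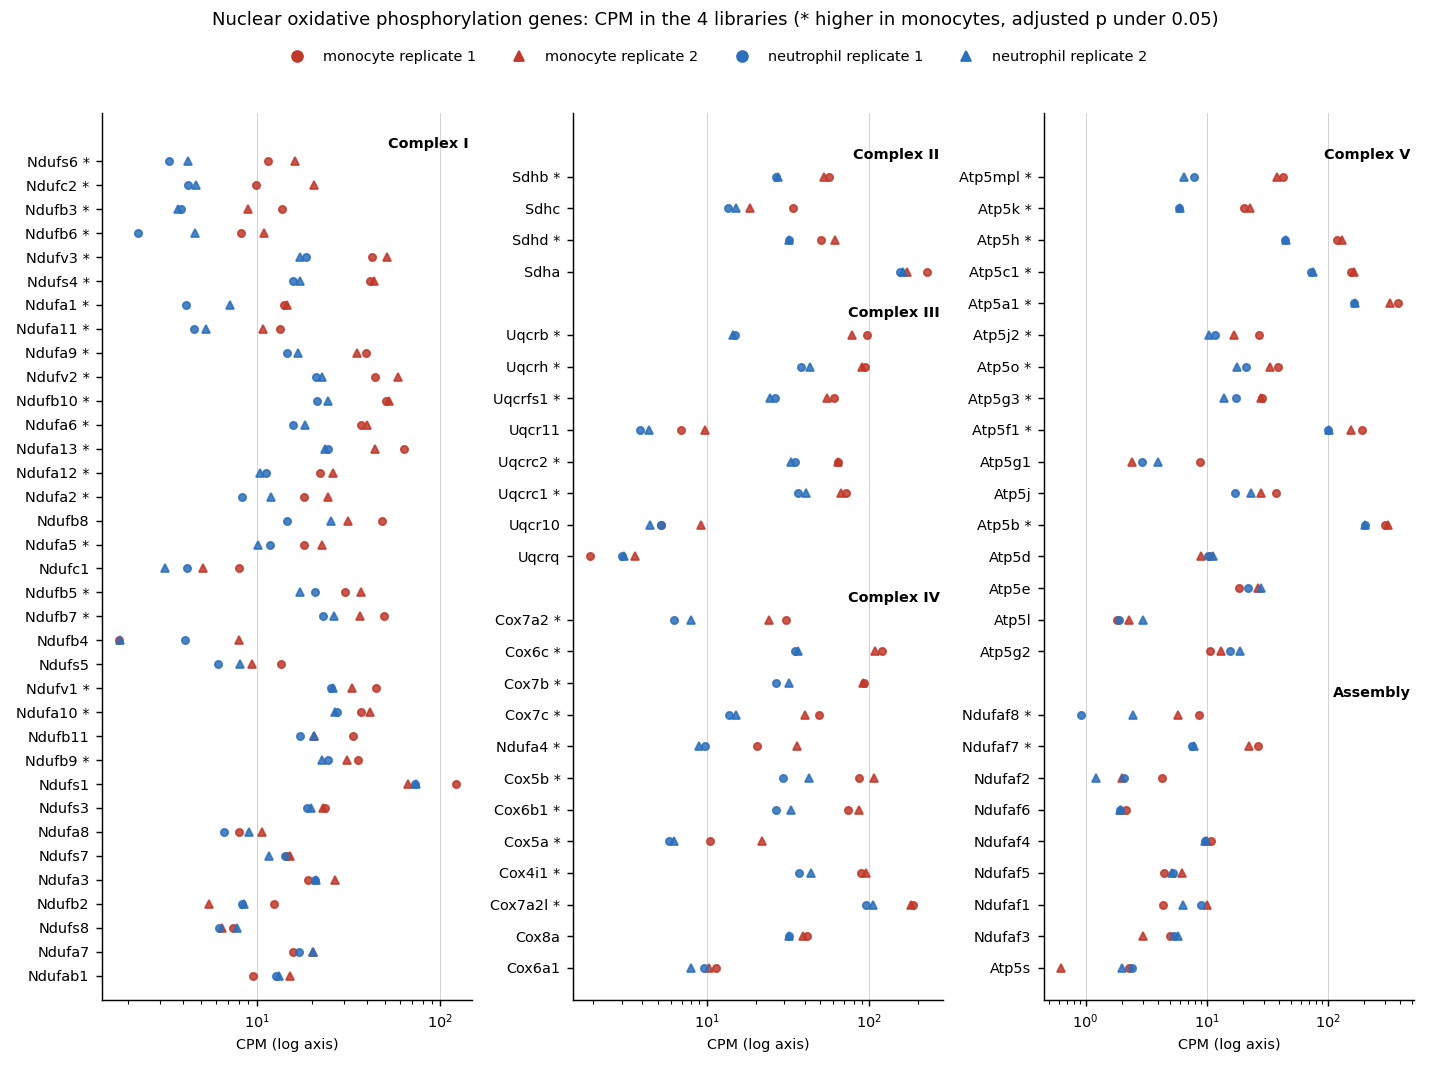
CPM on a log axis of tested genes in the 4 libraries, in order of fold change within each complex. Circles and triangles are the first and second library of a group, and an asterisk marks genes higher in monocytes. For each of the 12 complex IV genes both monocyte points lie to the right of both neutrophil points.

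The libraries of a group did not always lie close together. The monocyte libraries differed by a median of 0.31 on the log2 scale over the 85 genes and by more than 2-fold for 8 of them, while the neutrophil libraries differed by 0.15 and by more than 2-fold for 3. Both monocyte libraries were above both neutrophil libraries for 64 genes and below for 2, against 35.1% and 40% of all tested genes. The 2 genes below were Atp5g2 and Ndufaf3, which did not pass the test.

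Complex I, or NADH dehydrogenase, takes electrons from NADH and is the largest of the respiratory complexes. Of its 36 nuclear genes in the set, all tested, 22 were higher in monocytes and the median log2 fold change was 0.83. Among the core subunits are those that carry the flavin and the iron-sulfur clusters. Of these, Ndufv2, of the NADH-binding module, stood at 44.3 and 58.8 CPM in monocytes and at 21.1 and 22.7 CPM in neutrophils (log2 fold change 1.23, SE 0.18, edgeR adjusted p = 0.00369). Ndufv1, which binds NADH, stood at 44.4 and 33.0 against 25.4 and 26.0 CPM (0.59, SE 0.18, edgeR adjusted p = 0.0461). For both genes the groups did not overlap. The call of Ndufv1 was lost without neutrophil replicate 1 (adjusted p = 0.21) or 2 (0.194), with upper-quartile factors (0.0557), with limma on log2(TPM + 1) and log2(TPM + 0.1) (0.0864 and 0.0908) and with the effective length offset (0.0604).

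Further core subunits lay closer together. Ndufs1, the largest subunit, was at 121 and 66.9 CPM in monocytes and at 72.8 and 73.9 CPM in neutrophils, so the groups overlapped. Ndufs3 was at 23.5 and 23.1 against 18.8 and 19.7 CPM, and Ndufs7 at 14.7 and 15.3 against 14.3 and 11.7 CPM. Ndufs8, which carries a pair of iron-sulfur clusters, was at 7.49 and 6.48 against 6.25 and 7.84 CPM. Their log2 fold changes were 0.36, 0.27, 0.20 and -0.01, with edgeR adjusted p from 0.204 to 0.98, and Ndufs1 was called without monocyte replicate 2 (0.70, adjusted p = 8.3e-05).

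Among the 29 accessory subunits, which surround the core, 19 were higher in monocytes. Ndufs6, which is needed late in assembly, differed the most, with 11.6 and 16.1 CPM in monocytes and 3.36 and 4.26 CPM in neutrophils (log2 fold change 1.86, SE 0.32, edgeR adjusted p = 0.00686). Ndufc2, at 9.94 and 20.5 against 4.23 and 4.70 CPM (1.77, SE 0.41, edgeR adjusted p = 0.0192), and Ndufb3, at 13.8 and 9.03 against 3.86 and 3.72 CPM (1.59, SE 0.34, edgeR adjusted p = 0.015), came next. The monocyte libraries lay farther apart than the neutrophil libraries for both, and above them without overlap. Ndufb3 was no longer called when either neutrophil library was left out (adjusted p = 0.0549 and 0.0592).

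Accessory subunits did not all differ. Ndufa3, a small membrane subunit, had the highest length-corrected level of complex I in neutrophils and was at 19.1 and 26.9 CPM in monocytes and at 20.9 and 21.1 CPM in neutrophils (log2 fold change 0.13, SE 0.21, edgeR adjusted p = 0.662). Chosen after their values were seen, Ndufa7 at 15.8 and 20.2 against 17.0 and 20.2 CPM and Ndufab1, the mitochondrial acyl carrier protein, at 9.61 and 15.2 against 12.8 and 13.2 CPM also overlapped between the groups. Ndufb4 varied the most between monocyte libraries, at 1.78 and 8.04 CPM. It shares reads with Ndufb4c, annotated as a processed pseudogene, which had 443 counts in each monocyte library and 286 and 245 counts in the neutrophil libraries. With the pair summed, the libraries held 18.7 and 25.4 CPM in monocytes and 17.2 and 13.8 CPM in neutrophils.

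Complex II, or succinate dehydrogenase, feeds electrons from succinate and is also an enzyme of the tricarboxylic acid cycle. All of its 4 subunits are nuclear, and 2 were higher in monocytes. Sdhb, the iron-sulfur subunit (chr4:140961203-140979193, mm10), was at 56.7 and 52.9 CPM in monocytes and at 26.6 and 27.3 CPM in neutrophils (log2 fold change 1.02, SE 0.12, edgeR adjusted p = 0.00189). Sdhd, a membrane anchor, was at 50.6 and 61.8 against 32.04 and 32.08 CPM (0.81, SE 0.15, edgeR adjusted p = 0.00796). Sdhc, the other anchor, was at 33.8 and 18.3 against 13.5 and 15.0 CPM (0.87, SE 0.31), and Sdha, the flavin subunit, at 225 and 172 against 154 and 161 CPM (0.33, SE 0.14). Neither passed the test (edgeR adjusted p = 0.0738 and 0.113), although the groups of all 4 genes were apart. Sdhc was called with no length correction when low genes were kept (adjusted p = 0.0117) or filtered at 10 CPM (0.0478), with DESeq2 (0.0385) and without monocyte replicate 2 (7.35e-05), and Sdha without monocyte replicate 2 (0.000444).

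Sdha had the highest length-corrected level of the complex. This level is the expected count over effective length, the span in which a fragment can start, scaled to a sum of 1000000 over nuclear protein-coding genes. It was 335 ± 31.4 for Sdha in monocytes and 299 ± 14.2 in neutrophils (SD, n = 2 each), against 132 ± 6.47 and 75.9 ± 0.571 for Sdhb. Subunits that stand together in the complex thus had unequal levels of RNA in both cell types.

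Complex III passes electrons from ubiquinol to cytochrome c. Of its 8 genes in the set, 5 were higher in monocytes, with a median log2 fold change of 0.96. The Rieske iron-sulfur protein Uqcrfs1, the catalytic subunit that the rule takes in, was at 60.2 and 54.9 CPM in monocytes and at 26.4 and 24.5 CPM in neutrophils (1.18, SE 0.13, edgeR adjusted p = 0.00136). Uqcrb (chr13:66900617-66905378, mm10), which stabilises the quinone site, showed the largest difference among the 85 genes. It stood at 97.2 and 78.5 CPM in monocytes and at 15.0 and 14.4 CPM in neutrophils, which is 5.98-fold (2.58, SE 0.15, edgeR adjusted p = 0.000178). Uqcrh, the hinge protein between the complex and cytochrome c, was at 94.2 and 90.1 against 38.1 and 43.1 CPM (1.18, SE 0.12, edgeR adjusted p = 0.000903).

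In neutrophils the length-corrected level of Uqcrh was 277 ± 19.3 and that of Uqcrb 106 ± 5.66, whereas in monocytes both lay close together, at 564 ± 34.5 and 558 ± 96.5 (SD, n = 2 each). Cyc1, the cytochrome c1 subunit, falls outside the symbol rule and was chosen after its values were seen. It had 288 and 406 counts in monocytes and 272 and 239 in neutrophils (0.15, SE 0.26, edgeR adjusted p = 0.678).

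Complex IV, or cytochrome c oxidase, reduces oxygen, and its catalytic subunits come from mitochondrial DNA. Of the 12 nuclear genes tested, 10 were higher in monocytes, with a median log2 fold change of 1.42. In all 12 both monocyte libraries were above both neutrophil libraries. Cox7a2 was at 30.6 and 24.1 CPM in monocytes and at 6.30 and 7.98 CPM in neutrophils (1.94, SE 0.23, edgeR adjusted p = 0.0018). Cox6c was at 119 and 109 against 34.8 and 36.5 CPM (1.68, SE 0.11, edgeR adjusted p = 0.000225), and Cox7b at 93.3 and 91.9 against 26.5 and 31.8 CPM (1.67, SE 0.13, edgeR adjusted p = 0.000443). These are small membrane subunits around the catalytic core. Cox6b1, which lies on the side where cytochrome c docks, was at 73.6 and 86.5 against 26.8 and 33.2 CPM (1.42, SE 0.16, edgeR adjusted p = 0.00145), and Ndufa4 at 20.3 and 35.7 against 9.70 and 8.96 CPM (1.58, SE 0.31, edgeR adjusted p = 0.0103). The 2 genes that did not pass were Cox8a, at 41.2 and 39.0 against 31.9 and 31.8 CPM (adjusted p = 0.0854, and 0.0436 without monocyte replicate 2), and Cox6a1, at 11.4 and 10.3 against 9.56 and 8.03 CPM (adjusted p = 0.385).

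The isoforms of complex IV subunits that other tissues use were at or near 0. Cox4i2, Cox6b2, Cox7a1, Cox7b2, Cox8b, Cox8c and Ndufa4l2 had 0 counts in every library, which allows up to 3 counts, or 0.115 to 0.147 CPM, per library. Cox6a2, the heart and muscle form, had 18 counts in monocyte replicate 1, 0 in monocyte replicate 2 and 0 and 1 in the neutrophil libraries, and its exons share 10.29% of their bases with the opposite strand of Itgad. The paired forms Cox4i1, Cox6a1, Cox6b1, Cox7a2, Cox7b, Cox8a and Ndufa4 were therefore the ones seen in both cell types. Cox4i1, which joins the complex early in its assembly, was at 89.3 and 95.4 CPM in monocytes and at 37.0 and 44.0 CPM in neutrophils (log2 fold change 1.19, SE 0.13, edgeR adjusted p = 0.00128). Cox7a2l, classed as a factor of supercomplexes (respiratory complexes joined together), was at 187 and 180.3 against 94.9 and 105 CPM (0.88, SE 0.09, edgeR adjusted p = 0.00117). It was chosen after its values were seen.

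Complex V, or ATP synthase, has a catalytic head, a rotating ring, a stalk that holds the head and small membrane subunits. Of its 16 genes, 10 were higher in monocytes, with a median log2 fold change of 0.82. In the head, Atp5a1 (alpha) was at 379 and 326 CPM in monocytes and at 165 and 169 CPM in neutrophils (1.08, SE 0.10, edgeR adjusted p = 0.000728). Atp5b (beta, which holds the catalytic sites) was at 298 and 313 against 203 and 204 CPM (0.59, SE 0.08, edgeR adjusted p = 0.00255), and Atp5c1 (gamma, the rotating shaft) at 157 and 164 against 72.5 and 75.9 CPM (1.12, SE 0.09, edgeR adjusted p = 0.000453). The groups were apart for all 3, and Atp5b was not called with limma on log2(TPM + 1) and log2(TPM + 0.1) (adjusted p = 0.0671 and 0.0653).

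The 2 smallest parts of the head did not follow. Atp5d (delta) was at 10.8 and 9.03 against 10.3 and 11.4 CPM, and Atp5e (epsilon) at 18.6 and 26.7 against 22.1 and 28.3 CPM, with log2 fold changes of -0.13 (SE 0.25) and -0.15 (SE 0.24) and edgeR adjusted p of 0.723 and 0.644. Both genes overlapped between the groups.

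In the membrane part, Atp5mpl (chr12:111961375-111966977, mm10), a small proteolipid, stood at 43.0 and 38 CPM in monocytes and at 7.82 and 6.51 CPM in neutrophils, which is 5.64-fold (2.5, SE 0.18, edgeR adjusted p = 0.00033). Atp5k (subunit e, involved in dimers of the enzyme) was at 20.4 and 22.9 against 5.88 and 6.02 CPM (1.86, SE 0.21, edgeR adjusted p = 0.00145). In the stalk, Atp5h (subunit d) was at 121 and 131 against 44.1 and 44.9 CPM (1.5, SE 0.10, edgeR adjusted p = 0.000261), and its length-corrected level was the highest of the complex in monocytes, at 713 ± 72.2. Atp5b was within that spread at 679 ± 83.0, and led in neutrophils at 579 ± 56.5 (SD, n = 2 each).

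The c ring is encoded by 3 genes whose mature proteins are the same. Atp5g3 was higher in monocytes, at 28.9 and 28.1 against 17.5 and 14.0 CPM (0.85, SE 0.18, edgeR adjusted p = 0.0133), and was not called once the trend on gene length was removed (adjusted p = 0.0554, and 0.126 with protein-coding genes alone). Atp5g2, at 10.7 and 13.3 CPM in monocytes and 15.5 and 19.0 CPM in neutrophils, lay the other way without passing the test (-0.52, SE 0.23, edgeR adjusted p = 0.121; called without monocyte replicate 2), and Atp5g1, at 8.90 and 2.43 against 2.94 and 3.93 CPM, overlapped. These 2 genes were chosen after their values were seen. Atp5l was the single tested gene of the set with a posterior coefficient of variation over 10%, taken here as uncertain read assignment. Its value reached 19.57%, and that of Atp5g2 reached 8.69%. Atp5l was at 1.82 and 2.30 against 1.89 and 2.98 CPM (-0.23, SE 0.61, edgeR adjusted p = 0.795).

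Assembly factors stood lower than the subunits, and most did not pass the test. Of 9 genes, 8 serve complex I, and 2 of these were higher in monocytes, against 20.8% of all tested genes. SEs were wide for low genes, at 0.68 for Ndufaf2, 0.61 for Ndufaf6 and 0.84 for Atp5s. A difference in such genes could be missed. Ndufaf7, a methyltransferase of the mitochondrion, was at 26.6 and 22.5 CPM in monocytes and at 7.63 and 7.84 CPM in neutrophils (1.66, SE 0.20, edgeR adjusted p = 0.00177). Ndufaf8 was at 8.67 and 5.81 against 0.919 and 2.45 CPM (2.10, SE 0.60, edgeR adjusted p = 0.037), with 20 and 50 counts in neutrophils, and was not called without neutrophil replicate 1 (adjusted p = 0.146). The log2 fold changes of the 9 genes had a median of 0.10. Their median length-corrected level was 10.4 and 13.9 in monocytes and 10.97 and 9.79 in neutrophils, against 115 and 107 and then 70.2 and 69.9 over the 85 genes.

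**Figure D2:**
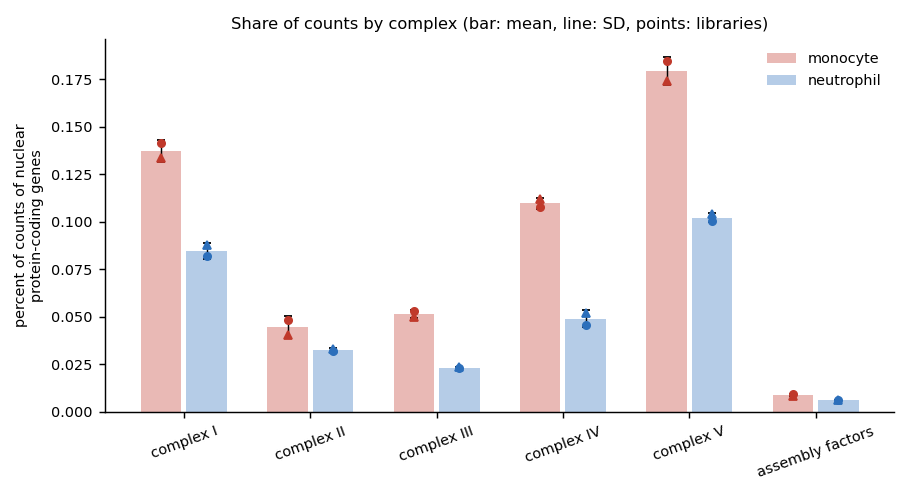
Percent of the counts of nuclear protein-coding genes held by each complex and by the assembly factors. Bars are means of 2 libraries, lines the SD and points the libraries; the ratio of monocyte to neutrophil means was 2.24 for complex IV, 2.23 for complex III, 1.76 for complex V, 1.62 for complex I, 1.42 for the assembly factors and 1.38 for complex II.

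Scaled to the summed counts of the 93 genes themselves, a setting added after the data were seen, the libraries could be compared for the make-up of the pathway. In this fit 10 genes of the set lay above in monocytes and 15 below, against 6.93% and 51.2% of all tested genes, which shift by construction. Of the 12 complex IV genes, 5 were higher in monocytes (Cox6b1, Cox6c, Cox7a2, Cox7b and Cox7c, with log2 fold changes from 0.51 to 1.02) and Cox8a was lower (-0.59, edgeR adjusted p = 0.013). The core subunits Ndufs3, Ndufs7 and Ndufs8 of complex I were lower in monocytes, from -0.64 to -0.93, and none of the 36 complex I genes was higher (edgeR quasi-likelihood test, as for the other counts here). Within complex V the set divided, with Atp5mpl, Atp5k and Atp5h higher and Atp5b, Atp5d, Atp5e and Atp5g2 lower. This fit carried no correction for gene length. Mean effective lengths were 200.5, 218.5 and 415.8 bases for Atp5mpl, Atp5k and Atp5h. For Atp5b, Atp5d, Atp5e and Atp5g2 they were 1002.8, 775.1, 291.3 and 558.3 bases. The part of length in the make-up seen here was not tested. Uqcrb, at 1.66 (SE 0.16), had the largest excess. Since this scaling centres the set, members on both sides of 0 follow from its construction.

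**Figure D3:**
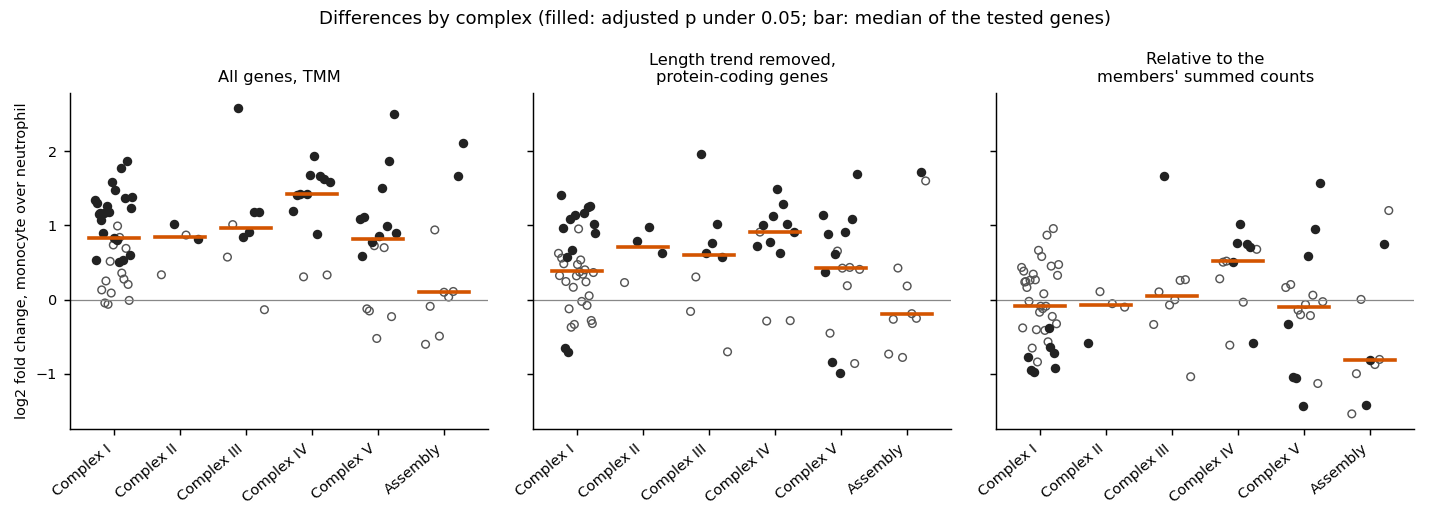
Log2 fold change of the 85 tested genes, monocyte over neutrophil, by complex under the main scaling, with the trend on gene length removed, and relative to the summed counts of the set. Filled points passed the test and bars are medians; complex IV has the highest median in each panel (1.42, 0.91 and 0.51), and the assembly factors the lowest (0.10, -0.19 and -0.82).

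Gene length moved with the comparison. The median effective length was 598 bases over the 85 genes and 2257 bases over the tested protein-coding genes, and short genes as a whole leaned to monocytes. Of 299 protein-coding genes under 500 bases, 38.8% passed with monocytes higher and 10% with neutrophils higher, whereas of 6725 genes of at least 2000 bases the shares were 20.8% and 27.8%. Spearman's rho between fold change and length was -0.15 across 11890 protein-coding genes and -0.22 across the 85 genes. Points share the libraries, and genes are not independent replicates.

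Within a class of length, the genes of oxidative phosphorylation were still called more often than protein-coding genes as a whole. Under 500 bases, 20 of 31 (64.5%) were higher in monocytes with a median log2 fold change of 1.15, against 0.60 for all genes of that class. From 500 to 1000 bases it was 17 of 33 (51.5%, against 27.9%), and from 1000 to 2000 bases 11 of 15 (73.3%, against 25.5%). At 2000 bases and above it was 3 of 6, namely Atp5a1, Ndufa11 and Ndufaf7. No gene of the set was higher in neutrophils in any class.

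A second fit removed the trend on length from each library with a loess curve. With the curve drawn through all tested genes, 42 of the 85 genes were higher in monocytes and 1, Atp5g2, was higher in neutrophils (median 0.71), against 23.2% and 18.7% of all tested genes. With protein-coding genes alone, which is the stronger correction for short genes, 36 stood higher in monocytes and 4 higher in neutrophils (median 0.48), against 25.3% and 22% of the protein-coding genes. In the first of these fits the median was 0.72 without neutrophil replicate 1 and 0.67 without neutrophil replicate 2. It was 0.70 without monocyte replicate 1 and 0.85 without monocyte replicate 2. The 4 genes higher in neutrophils were Ndufa3 (-0.66, edgeR adjusted p = 0.0378), Ndufa7 (-0.70, adjusted p = 0.0272), Atp5e (-0.85, adjusted p = 0.0171) and Atp5g2 (-0.99, adjusted p = 0.0116). Of these, 3 have a mean effective length between 215 and 332 bases. Under 500 bases the share of genes of the set higher in monocytes was then 38.7%, against 19.8% of protein-coding genes in the class.

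**Figure D4:**
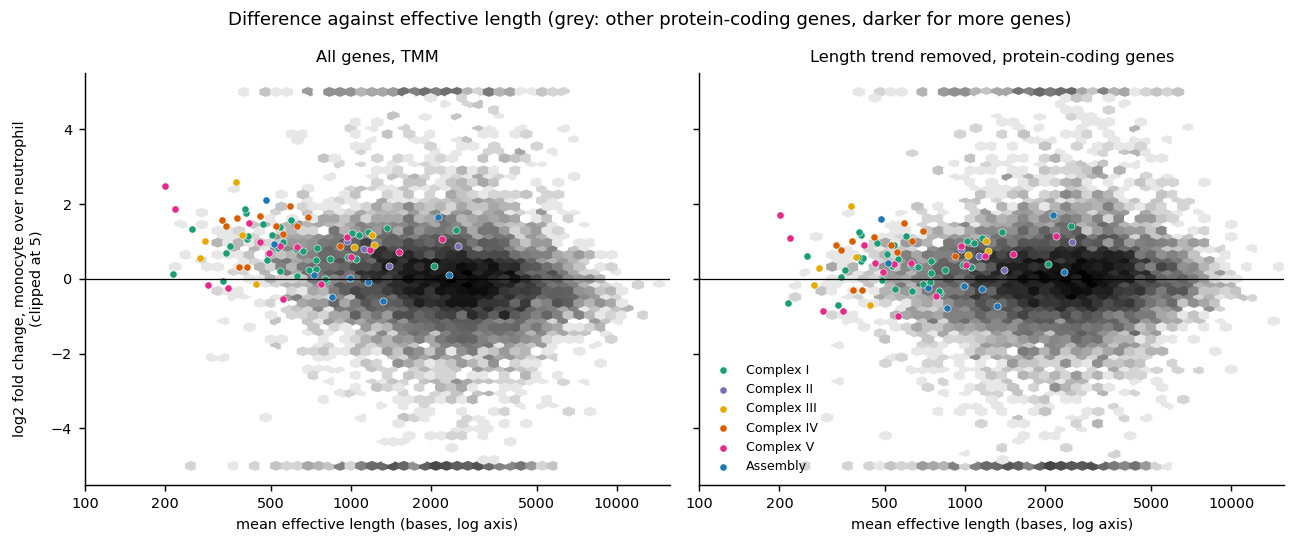
Log2 fold change against mean effective length on a log axis, before and after the trend was removed. Coloured points are the 85 genes by complex and grey cells the other tested protein-coding genes (clipped at 5 on either side); the grey cloud tilts up at short lengths on the left, where most coloured points lie, and its median is level on the right.

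In that strictest fit, 9 of 12 complex IV genes, 5 of 8 complex III genes, 3 of 4 complex II genes, 7 of 16 complex V genes, 11 of 36 complex I genes and 1 of 9 assembly factors were higher in monocytes, and 35 of these 36 genes were among the 51 called before. Atp5a1, at a mean of 2197 bases, had a log2 fold change of 1.14 after it and 1.08 before, and Ndufaf7, at 2138 bases, 1.72 and 1.66. The short Uqcrb, at 370 bases, went from 2.58 to 1.96, and Atp5mpl, at 201 bases, from 2.5 to 1.70, and both passed the test in both fits. Sdhc, not called in the first fit, passed the test here (0.98, edgeR adjusted p = 0.036). Ndufv1 and Ndufaf8, called in the first fit, did not (adjusted p = 0.142 and 0.0556).

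Of the 93 genes, 75 had a promoter window in RefSeq on GRCm38.p6, from 250 bases before to 50 after the start of the gene. The core of the NRF1 motif, GCGCANGCG, stood in 22 of them (29.3%), against 7.03% of all 27025 genes with a window. That background took in genes whether expressed here or not and was not matched for base composition. The YY1 motif AAGATGGCG stood in 10.7% against 1.64%, the ERR alpha motif AAGGTCA in 10.7% against 5.38% and the GABPA motif CCGGAAGT in 6.67% against 4.31%, with both strands read in each case and no motif contained in another. NRF1 and GABPA are known as activators of respiratory chain genes. A match is only a run of letters. Either of these motifs was found in 13 of the 42 genes higher in monocytes that had a window (31.0%) and in 12 of the 29 that did not pass the test (41.4%), and these shares were not tested against each other. In the 100 bases before the start, 17 of the 75 genes (22.7%) hold any of these motifs, against 8.03% of all genes. Strongly higher genes such as Cox7a2, Ndufc2 and Cox7b hold none there. These bases are shown for 4 genes that do hold a motif, to set strongly higher genes beside a gene that leaned to neutrophils. Capitals mark NRF1 in Atp5k, Ndufs6 and Atp5g2, where the run reads on both strands in Atp5k and Atp5g2, and GABPA in Atp5h. All 4 lie on the minus strand and read 5′ to 3′, at chr5:108434400-108434499 (Atp5k), chr13:73328483-73328582 (Ndufs6), chr11:115419920-115420019 (Atp5h) and chr15:102671048-102671147 (Atp5g2).
Atp5k: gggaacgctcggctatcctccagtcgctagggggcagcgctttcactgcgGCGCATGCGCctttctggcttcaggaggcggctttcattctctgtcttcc
Ndufs6: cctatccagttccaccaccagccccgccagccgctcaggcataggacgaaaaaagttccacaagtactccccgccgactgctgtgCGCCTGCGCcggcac
Atp5h: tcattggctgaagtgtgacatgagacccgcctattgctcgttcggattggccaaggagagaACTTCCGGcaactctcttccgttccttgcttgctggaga
Atp5g2: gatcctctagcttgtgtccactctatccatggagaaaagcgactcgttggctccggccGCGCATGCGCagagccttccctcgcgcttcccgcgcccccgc

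The subunits made from mitochondrial DNA did not show the pattern of the nuclear genes. Together the 13 genes held 0.521% and 0.720% of all counts in monocytes and 0.745% and 0.663% in neutrophils, so the groups overlapped. By gene, 3 were higher in monocytes and 2 in neutrophils (edgeR quasi-likelihood test, background as above). The stronger correction for gene length, drawn on nuclear protein-coding genes alone, took in 0 of these 13 genes. mt-Nd3, of complex I, was at 191 and 344 CPM in monocytes and at 71.0 and 102 CPM in neutrophils (log2 fold change 1.62, SE 0.32, edgeR adjusted p = 0.0106). mt-Co1, the catalytic subunit of complex IV, was at 2792 and 3574 against 4911 and 4261 CPM (-0.53, SE 0.14, edgeR adjusted p = 0.0286; not called with limma on log2(TPM + 1) and log2(TPM + 0.1), adjusted p = 0.109 and 0.104), and mt-Nd5 at 89.0 and 106 against 166 and 146 CPM (-0.67, SE 0.13, edgeR adjusted p = 0.00914). mt-Nd4l was at 6.63 and 24.9 against 3.14 and 2.70 CPM (2.44, SE 0.66, edgeR adjusted p = 0.0302) and was not called with posterior mean counts (adjusted p = 0.0905). Nuclear copies of mitochondrial DNA can share the reads of these genes.

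Other genes of the pathway were taken from lists. Of 42 tested assembly factors with other names, 6 were higher in monocytes and 1 in neutrophils, both below the shares over all tested genes (20.8% and 21.8%). Tmem126a, for complex I, was at 7.03 and 13.0 against 2.44 and 2.40 CPM (2.05, SE 0.43, edgeR adjusted p = 0.0138), Uqcc2, for complex III, at 15.4 and 12.7 against 4.32 and 4.56 CPM (1.66, SE 0.27, edgeR adjusted p = 0.00556), and Dmac2, for complex I, at 20.9 and 30.2 against 61.5 and 65.7 CPM (-1.32, SE 0.20, edgeR adjusted p = 0.00426). The 3 genes had libraries that did not overlap between the groups.

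Of 22 electron carriers, carriers of adenine nucleotides and related genes, 7 stood higher in monocytes and 1 higher in neutrophils, against 20.8% and 21.8% of all tested genes. Etfb and Etfa, which pass electrons from fatty acid oxidation to the chain, were at 42.0 and 36.6 against 9.93 and 7.20 CPM (2.20, SE 0.21, edgeR adjusted p = 0.000867) and at 30.0 and 16.2 against 5.65 and 5.14 CPM (2.10, SE 0.35, edgeR adjusted p = 0.00601). Coq8a, a kinase-like protein of ubiquinone synthesis, was at 4.59 and 4.75 against 23.7 and 26.5 CPM (-2.43, SE 0.21, edgeR adjusted p = 0.000546). Of 18 genes of the tricarboxylic acid cycle and pyruvate dehydrogenase, 6 were higher in monocytes and 1 in neutrophils (same background), led by Pdha1 (264 and 233 against 64.8 and 75.5 CPM; 1.83, SE 0.12, edgeR adjusted p = 0.000236) and Dlst (183 and 173 against 88.6 and 75.1 CPM; 1.12, SE 0.11, edgeR adjusted p = 0.000961). Fh1, or fumarase, was higher in neutrophils (26.3 and 21.3 against 40.3 and 36.7 CPM; -0.69, SE 0.16, edgeR adjusted p = 0.0204), but was not called without neutrophil replicate 1 (adjusted p = 0.143) or 2 (0.06), with the effective length offset (0.209) or with limma on log2(TPM + 1) and log2(TPM + 0.1) (0.304 and 0.312).

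Of 20 tested regulators of mitochondrial biogenesis, 11 did not pass the test, 8 stood higher in neutrophils and 1 in monocytes, against 20.8% and 21.8% of all tested genes with monocytes and with neutrophils higher. Their median log2 fold change was -0.52. Ppargc1b, a coactivator of respiratory genes, was at 0 counts in either monocyte library and at 105 and 101 counts in neutrophils. Against a floor of 3 counts per library this is at least 41.5-fold higher in neutrophils. Ppargc1a, its better known relative, had 9 and 20 counts in monocytes and 98 and 61 in neutrophils (-2.72, SE 0.75, edgeR adjusted p = 0.0323), and was not called without neutrophil replicate 1 (adjusted p = 0.424) or 2 (0.148) or with the effective length offset (0.248). Gabpa was at 124 and 136 CPM in monocytes and at 101 and 91.6 CPM in neutrophils (0.43, SE 0.10, edgeR adjusted p = 0.0208), and lost its call without either neutrophil library (adjusted p = 0.0809 and 0.24). The transcription factor Nrf1, chosen after its values were seen, was at 69.8 and 52.1 against 87.9 and 90.7 CPM (-0.55, SE 0.16, edgeR adjusted p = 0.0377).

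Exons of 27 of the 85 genes overlap a gene on the opposite strand. For 10 of these a single such gene covers more than 10% of the exon bases, and 7 of the 10 were higher in monocytes. This stands against 60.0% of the 85 genes and 20.8% of all tested genes. How strand was set in the counting was not given in the sources used here, so reads of such pairs cannot be told apart. On the X chromosome lie 3 of the tested genes, of which Ndufa1 (14.0 and 14.6 against 4.14 and 7.20 CPM) and Cox7b were higher in monocytes and Ndufb11 was not called. The shares over the 85 genes and over all tested genes are those given above.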

How the data were processed

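Total RNA of 2 monocyte and 2 neutrophil libraries was depleted of ribosomal RNA and made into libraries with tagged random hexamers, per the labels. The authors aligned reads to mm10 with STAR and estimated gene levels with RSEM. The deposited files give expected counts and posterior mean counts (both estimated counts), TPM, which the authors scaled per library, and effective lengths. Symbols, types and coordinates came from GENCODE M21 by identifier without version (98.0% of gene rows matched), which may not be the release the authors counted with. Spike-in and numeric rows were left out.

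Expected counts were rounded, filtered with filterByExpr, scaled by TMM (factors 0.9936 to 1.005) and tested with edgeR 4.0.16 (quasi-likelihood F test, monocyte against neutrophil, 14309 genes). Benjamini-Hochberg adjusted p under 0.05 was called, and adjusted p-values cover all tested genes. SE is the fold change over the square root of F. DESeq2 1.42.0 and limma 3.58.1 on log2(TPM + 1) or log2(TPM + 0.1) were alternatives. Libraries held 20549572 to 26076261 counts; intervals and floors cover counting error only, as no molecular identifiers were used. Length trends were loess curves (span 0.3) of log2 CPM (prior count 2) on effective length. The fits were tested on simulated data.

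The genes and lists were chosen with earlier results of these data known. Named genes were the core subunits of complexes I, II, III and V, in each complex and among assembly factors the 2 of highest length-corrected level and up to 3 called genes per direction of largest fold change, the tissue-restricted isoforms with their partners and genes with a posterior coefficient of variation over 10%. In other lists they were up to 2 called genes per direction with at least 50 counts in both libraries of the higher group. A gene that this rule names is not reported here. Replicate numbers follow deposit order and pair nothing. Identical libraries were not found: replicates differed by 42.2 (monocyte) and 24.6 (neutrophil) in chi-square per degree of freedom.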

Additional observations from a re-analysis of the deposited data

How the results depend on the processing

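The excess in monocytes kept its direction in every planned setting: 36 to 63 genes of the set were higher there, 31 of them in each planned fit, and the count in neutrophils stayed 0 except with the length-trend offset (1, or 4 with protein-coding genes only) and without monocyte replicate 2 (1). Over settings that left out a library the counts ran from 37 to 63 and from 0 to 1, and all genes higher in neutrophils from 1810 to 4675; that count was 1801 and 1688 with limma on log2(TPM + 1) and log2(TPM + 0.1). When a monocyte library was left out, more of all tested genes were also called higher in monocytes. When a neutrophil library was left out, fewer were. The set's count thus moved in the same direction as the count over all tested genes in these settings. No paired analysis was possible because replicate numbers follow deposit order.

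The median log2 fold change of the set (main 0.88) was 0.97 with 10 CPM in 2 libraries, 0.98 with limma on log2(TPM + 0.1), 0.96 with the effective length offset, 0.71 with the length-trend offset and 0.48 with protein-coding genes only, and ran from 0.84 to 0.93 without single libraries. In the order of those settings, complex III was 1.16, 1.04, 1.04 and, at the last, 0.60 (0.885 to 0.997 without single libraries), and complex I was 0.98, 1.06, 0.58 and 0.39 from limma on (0.75 to 0.88). Complex II was 0.57 and 0.67 with the 2 pseudocounts of limma, 0.68 with the effective length offset and 0.71 at the strictest length trend (0.64 to 0.85). Complexes IV and V were 0.91 and 0.43 at that trend. Assembly factors were 0.86 at 10 CPM, 0.22 with limma, and -0.11 and -0.19 with the 2 length trends (0.074 to 0.242).

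Settings added after the data were seen were the following. The length-trend offset gave 3 genes higher in neutrophils and a median of 0.70 without monocyte replicate 1, 2 genes without monocyte replicate 2, 26 genes higher in monocytes and 0.72 without neutrophil replicate 1, and 31 and 0.67 without neutrophil replicate 2. Scaling to the summed counts of the set gave 10 and 15 genes (991 and 7321 of all), and medians of -0.036 over the set, -0.091, -0.079, 0.05, 0.51 and -0.10 for complexes I to V and -0.82 for assembly factors, since it removes the common change.

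Signs of genes near 0 turned. With protein-coding genes and the length trend, Cox6a1 was at -0.29, Cox8a at -0.28, Ndufa3 at -0.66, Ndufs3 at -0.079 and Ndufs7 at -0.28 (-0.08 with the trend over all genes). Ndufs8 was at 0.026 and 0.035 with limma and 0.002 with the effective length offset. Without single libraries Atp5e ran from -0.456 to 0.067, Atp5l from -0.54 to 0.11, Ndufa3 from -0.15 to 0.34, Ndufs1 from -0.15 to 0.70 and Ndufs8 from -0.18 to 0.13.

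The ratio of the set's share of counts (1.79) was 1.89 over all gene rows, and that of its summed length-corrected level (1.78) was 2.11 in deposited TPM. In the 100 bases before the start alone, the NRF1, YY1 and ERR alpha motifs stood in 14.7%, 1.33% and 4.0% of promoters, against 3.99%, 0.278% and 1.74% of all genes. The cause of these changes was not tested. The largest SEs of the set were 0.84 for Atp5s, with 16 to 60 counts per library, and 0.83 for Ndufb4, whose monocyte libraries differed by 2.11 on the log2 scale.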
